A study of Homo sapiens with 6 samples.

Results

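The clustered protocadherin genes encode cell-surface cadherins that lie in 3 neighbouring arrays, α, β and γ, on the long arm of human chromosome 5. Members were taken as the chromosome 5 genes of the GENCODE annotation (hg38) whose symbols begin with PCDHA, PCDHB or PCDHG followed by a number or by A, B or C and a number. The rule gave 59 genes, against 20007 protein-coding genes in the annotation. They were 13 α variable genes, 2 α C-type genes, 16 β genes, 12 γA genes, 7 γB genes, 3 γ C-type genes and 6 pseudogenes. All of them are transcribed from the plus strand, and the 3 arrays with 50 kb on either side formed 1 interval of 827 kb, chr5:140736136-141562977.

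Each α and γ variable exon has its own promoter and is spliced to constant exons shared by the array, whereas each β gene is a single exon. In neurons each cell uses only some of these promoters, and the resulting set of surface isoforms lets a neuron tell its own branches from those of its neighbours, while the C-type isoforms are used more uniformly. Promoter choice is known to depend on CTCF and cohesin, which loop a promoter to distal enhancers, on a conserved promoter element with the core CGCT, and on DNA methylation, which keeps unused promoters shut.

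Accessible chromatin was measured by ATAC-seq (assay for transposase-accessible chromatin using sequencing), in which the Tn5 transposase inserts adapters into open DNA. The cells were HLF, a human liver cancer cell line. The 3 DMSO libraries came from cells given vehicle, and the 3 SNDX-5613 libraries from cells given 5 µM SNDX-5613 (revumenib), a small molecule inhibitor of the interaction between menin and the histone methyltransferase MLL1. The labels give 24 h of treatment and batch 1 for all 6 libraries, while the study's methods describe a longer exposure, so the duration is uncertain. Both groups were grown in DMEM with fetal bovine serum and the labels name no engineered allele. The comparison asks whether menin inhibition alters accessibility, here at the protocadherin promoters. Each replicate was a single dish divided between treated and untreated cells, so p-values measure the spread between these cultures of a single line.

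A promoter is called open below when a peak summit lay within 1 kb of its transcription start site (TSS), and closed when no such peak was called, which does not show that it was inaccessible. The libraries held 88026, 113675 and 96392 regions with DMSO and 107347, 96910 and 40568 with SNDX-5613, in replicate order. Library SNDX-5613 3 stood apart. Its background pileup, a relative measure of depth, was 0.211, against 0.997 to 1.51 in the other 5, called the deeper libraries, so the tests are also given without it, here or with the alternatives. Counts were also repeated on the 40568 strongest regions of each library, called the equal number of regions. Of 8 hepatocyte markers, 0 had an open promoter in all 6 libraries and 7 had none in any, whereas 4 of 4 mesenchymal markers (VIM, CDH2, ZEB1 and FN1) were open in all 6. Of 4 neuronal markers, SNAP25 and SYT1 were open in all 6 libraries, NEFL in 4 and RBFOX3 in none.

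The sequences around the promoter element are shown first. Within an array, the open and closed members shown here shared a short string with the core, TGTCGCT in α, GTGGCGCT in β and CGCTGT in γ. The other bases were partly shared and partly different. The open PCDHGA2 and the closed PCDHGA3, for example, were alike over most of the stretch. Each is 28 bases of the plus strand of hg38, 5′ to 3′, with the CGCT core in capitals. PCDHA4, PCDHB2, PCDHGA2, PCDHGB5 and PCDHGC3 were open in all 6 libraries, PCDHA1 and PCDHB11 in 2 SNDX-5613 libraries only, and PCDHA13, PCDHB4 and PCDHGA3 in none.
PCDHA4 (chr5:140806981-140807008): gagccacatgatgtCGCTctttaccaca
PCDHA1 (chr5:140786088-140786115): tggccacatgatgtCGCTgtacaccaca
PCDHA13 (chr5:140882064-140882091): catgcgcatggtgtCGCTcttcactgag
PCDHB2 (chr5:141094546-141094573): gagacgcggggtggCGCTgcagccttag
PCDHB11 (chr5:141199532-141199559): gagacacttggtggCGCTgcaggataac
PCDHB4 (chr5:141121725-141121752): aagacgcagggtggCGCTgcaggctaag
PCDHGA2 (chr5:141338705-141338732): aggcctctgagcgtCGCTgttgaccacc
PCDHGB5 (chr5:141397865-141397892): ctgactctgggcgcCGCTgttggccaaa
PCDHGC3 (chr5:141475882-141475909): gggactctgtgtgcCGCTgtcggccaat
PCDHGA3 (chr5:141343769-141343796): aggcctcttagtgtCGCTgttgaccact

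The most common letters around the core differed between the arrays, but some were shared across them. TGTCGCT lay in the 150 bases before the TSS in 12 of 16 α members, GTGGCGCT in 13 of 19 β members and CGCTGT in 17 of 24 γ members, on the plus strand. These strings were chosen after the sequences were seen. Over 250 bases before the TSS, on either strand, TGTCGCT was found in 12 of 13 α variable genes (92.3%), against 1.63% of all protein-coding promoters, GTGGCGCT in 13 of 16 β genes (81.3%), against 1.26%, and CGCTGT in 10 of 12 γA genes (83.3%), against 10.2%. CGCTGT was also in 7 of 13 α variable genes (53.8%) and 1 of 16 β genes. TGTCGCT was also in 3 of 12 γA genes (25%) and 1 of 16 β genes. Among members, GTGGCGCT was in the β array alone. CGCTGT shares its CGCT with TGTCGCT wherever TGTCGCTGT occurs, so these counts overlap. The 4-letter CGCT alone was in 88.1% of members and 77.2% of all protein-coding promoters. Carrying the letters did not separate open from closed members. A match was present in 1 α, 3 β and 13 γ members that were closed in every library, and absent from 3 open members of each array, among them PCDHA9 and PCDHB8.

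A smaller share of members was open than of protein-coding genes in all. An open promoter in all 6 libraries was found for 17 of 59 members (28.8%), or 32.1% of the 53 protein-coding members, against 58.7% of all protein-coding genes, and 25 members were closed in every library. In SNDX-5613 3, PCDHA3, PCDHA7, PCDHA8 and PCDHA9 counted as open only through a summit 491 to 585 bp past the TSS. With the shallow library SNDX-5613 3 left out, 26 members (44.1%, or 49.1% of the protein-coding members) were open in the other 5, against 63.7% of protein-coding genes. These are shares of promoters with a called peak and carry no test.

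The arrays were used unequally. Of the α variable genes, 8 of 13 were open in all 6 libraries and 11 in the 5 deeper ones, which left PCDHA1, open in SNDX-5613 1 and 2, and PCDHA13, closed throughout. Both α C-type genes were open in the 5 deeper libraries. Of the β genes, 5 of 16 were open in all 6 and 9 in the 5 deeper libraries, and PCDHB4, PCDHB12 and PCDHB14 were closed in each. Among the γA genes PCDHGA2 was open in all 6 libraries and the other 11 were closed in every one. Of the γB genes, PCDHGB5 was open in all 6, PCDHGB1 in the 5 deeper ones, and PCDHGB2, PCDHGB4 and PCDHGB6 in none. PCDHGC3 was the γ C-type gene open in all 6 libraries, while PCDHGC4 was closed. The pseudogenes PCDHA14, PCDHB17P, PCDHB18P, PCDHB19P, PCDHGB8P and PCDHGB9P had no promoter peak. Members are near-copies of one another, which can limit unique alignment. Of the 50-base words from 500 bases before to 750 after the TSS, 47.4% occurred once in the genome at PCDHB13, 50.6% at PCDHB8, 61.9% at PCDHGB4 and PCDHGB5, 70.6% at PCDHA9 and 90.2% at the closed PCDHA13.

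**Figure D1:**
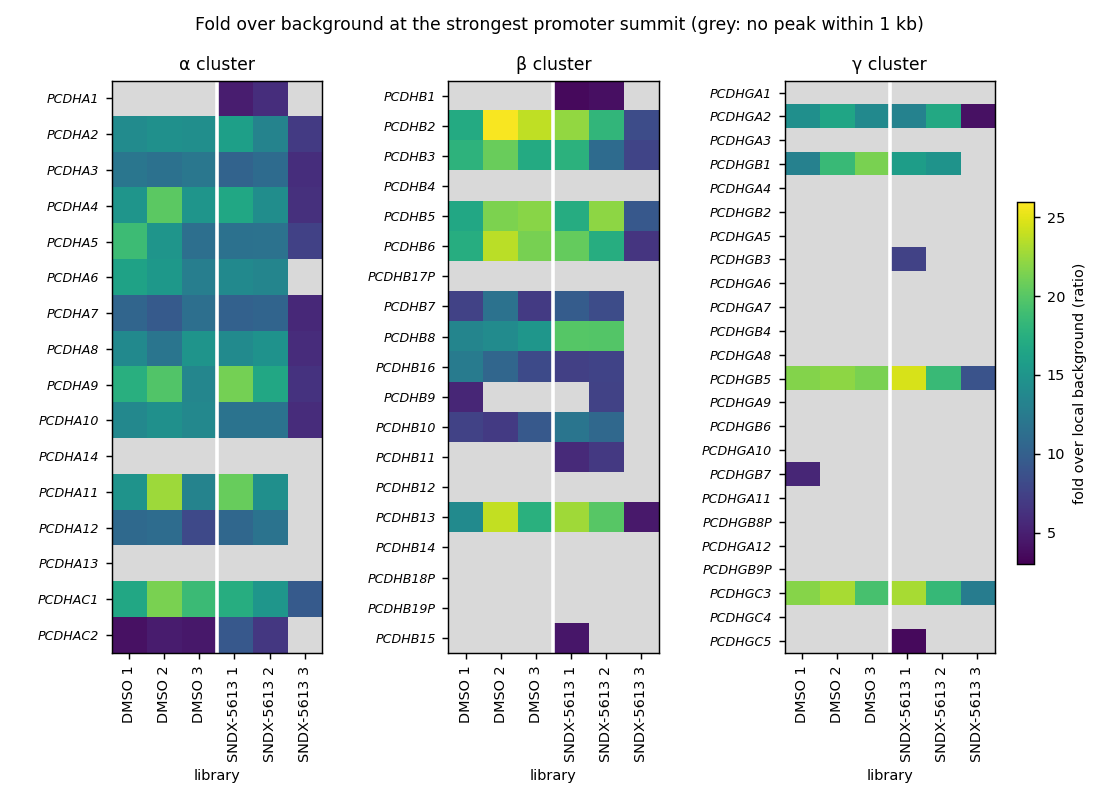
Fold over the local background (a ratio, colour) at the strongest summit within 1 kb of the TSS, for the 59 genes (rows, in genome order) in the 6 libraries (columns). Grey cells have no peak. The α array is filled nearly throughout, while 11 of 12 γA genes are grey in all 6 libraries.

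Merging the regions of the 6 libraries gave 50 sites, of which 23 were present in all 6 libraries, 15 in the 5 deeper libraries and 6 in 1 library. Member promoters accounted for 35 of the 50 sites and for 17 of the 23 in all 6 libraries.

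**Figure D2:**
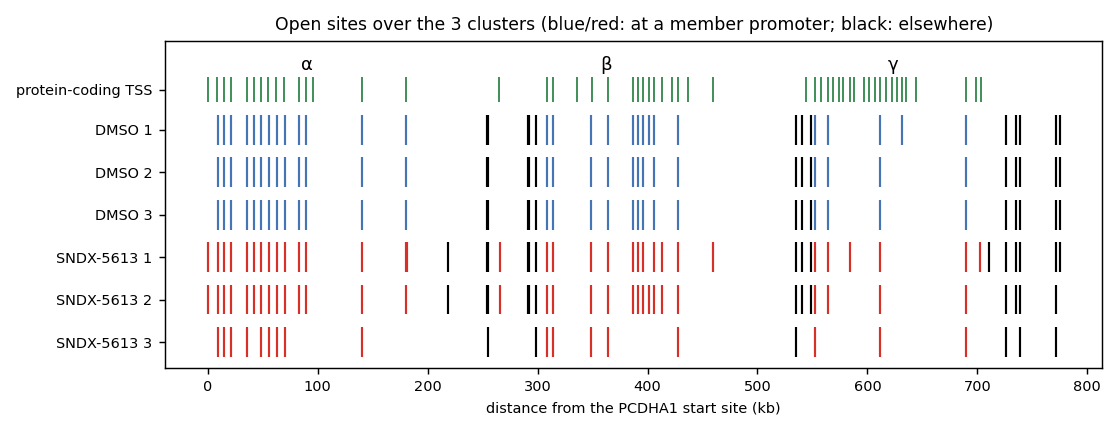
Positions of the 50 open sites by library (rows), in kb from the PCDHA1 TSS, with the TSS of each protein-coding member in green. Blue and red marks are sites at member promoters with DMSO and SNDX-5613, and black marks are sites elsewhere. The α and β TSS are mostly matched by a site, and most of the γ TSS are not.

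Among the promoters open in all 6 libraries, PCDHGC3 had the highest lowest rank over the libraries, although PCDHB2 was above it in DMSO 2 and 3. This C-type gene is a γ isoform that is widely expressed outside neurons. Its summit stood 21.8, 22.97 and 19.3-fold over the local background in DMSO 1 to 3 and 23.004, 18.4 and 12.6-fold in SNDX-5613 1 to 3. For PCDHAC1, a C-type gene of the α array, the folds were 16.8, 21.4 and 18.7 with DMSO and 17.3, 15.1 and 9.55 with SNDX-5613. The deeper libraries of the 2 groups overlapped at both genes, and SNDX-5613 3 was the lowest. That library was below the other 5 at each of the 17 promoters, and its fold cannot be set beside theirs, since the ratio depends on depth.

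Of the β genes, PCDHB2 had the highest lowest rank and stood at 17.1, 25.8 and 23.8-fold with DMSO and 22.3, 18.2 and 8.35-fold with SNDX-5613. PCDHB5 gave 16.8, 21.5 and 21.9-fold, and then 17.3, 22.1 and 9.36-fold. At PCDHB6 the values were 17.4, 23.7 and 21.3 with DMSO and 20.5, 17.3 and 6.54 with SNDX-5613. In these 3 genes the deeper SNDX-5613 libraries lay inside or next to the DMSO range. PCDHB3 had 17.9, 20.7 and 17.1-fold with DMSO, and 17.8, 11.1 and 7.74-fold with SNDX-5613. At PCDHB3 SNDX-5613 2 was well below the DMSO libraries and SNDX-5613 1 was among them.

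In the γ array PCDHGB5 had 21.7, 22.1 and 21.3-fold with DMSO and 24.6, 18.6 and 8.91-fold with SNDX-5613, so that the 2 deeper treated libraries lay on either side of the DMSO values. The α variable promoters given next were lower than PCDHGB5 in each library. Over all members the arrays overlapped, with a mean DMSO fold of 16.9 at PCDHA11 and 7.95 at PCDHB10. PCDHA4 had 14.997, 20.2 and 15.04-fold with DMSO and 16.7, 14.3 and 6.17-fold with SNDX-5613, and PCDHA9 had 17.5, 19.8 and 13.6-fold and 21.2, 16.8 and 6.38-fold. Both overlapped between groups. At its strongest summit, which changed place between libraries, PCDHA2 had 14.1, 14.5 and 14.4-fold with DMSO and 16.0, 13.3 and 6.87-fold with SNDX-5613. PCDHA5 spread from 18.8 through 14.997 to 11.4-fold with DMSO and had 11.5, 11.7 and 7.43-fold with SNDX-5613. At PCDHA10, folds of 13.7, 14.5 and 13.7 with DMSO stood against 11.8, 11.8 and 5.89 with SNDX-5613. These folds are of the strongest summit, which changed place between libraries. It lay at -14, 590 and 581 bp from the TSS with DMSO and at 588, -7 and 540 bp with SNDX-5613. At the PCDHA10 summit before the TSS the deeper libraries overlapped, at 13.7, 12.9 and 9.54-fold with DMSO against 9.29 and 11.8-fold. The other members open in all 6 libraries, PCDHA3, PCDHA7, PCDHA8, PCDHB13 and PCDHGA2, had 9.54 to 23.9-fold in the 5 deeper libraries.

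The α variable promoters were built differently from the β promoters. In each of the 5 deeper libraries 11 of 11 α variable genes other than PCDHA1 had at least 2 summits, against 59.6% to 77.0% of all open protein-coding promoters. Over all open α variable genes the first summit lay at a median of -45 to -34.5 bp from the TSS and the last at 544 to 565 bp, inside the first exon. The distance between the first and last summit had a median of 580 to 612 bp. At PCDHA4 in DMSO 1, for example, summits of 14.6 and 14.997-fold lay -71 and 579 bp from the TSS. PCDHA1 had 1 summit, 31 and 37 bp from its TSS in SNDX-5613 1 and 2. The median width of the α variable regions was 773 to 804 bp in the deeper libraries. The β regions were narrower, with a median width of 322 to 389 bp and a median of 1 summit, and the first lay at a median of -55.5 to -30 bp. All protein-coding promoter regions had median widths of 698 to 763 bp in these libraries, nearer to the α than to the β values. In the shallow library 3 of 8 α variable genes had 2 summits, which lay in separate regions, and the median width was 318 bp. There PCDHA3, PCDHA7, PCDHA8 and PCDHA9 had only a summit at 491 to 585 bp, and PCDHA5 only one at 211 bp. Because widths follow depth, they are given without a test.

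**Figure D3:**
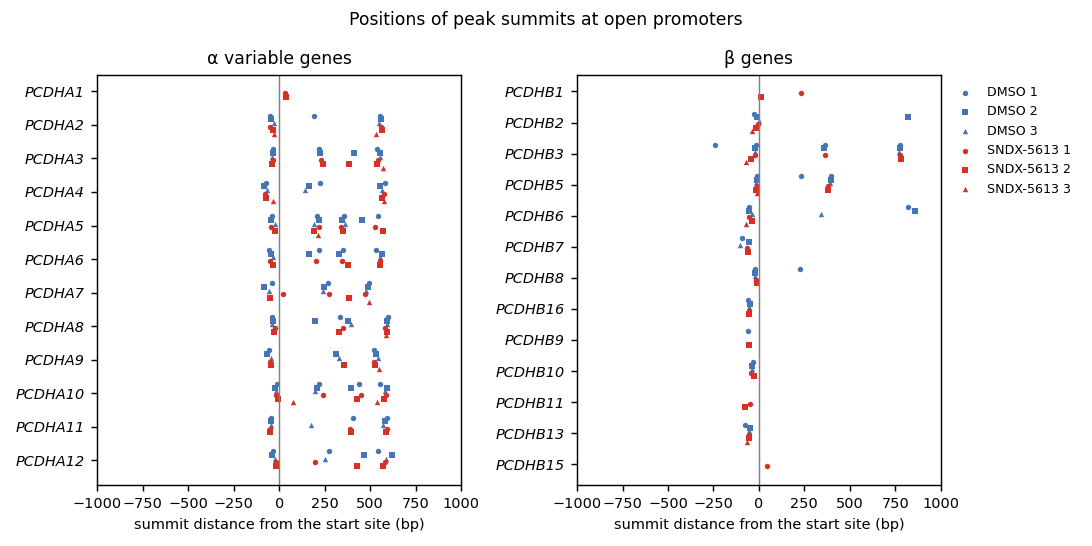
Distance of every summit from the TSS (bp, x axis) at open α variable genes (left) and β genes (right), 1 row per gene, with blue symbols for DMSO and red for SNDX-5613 libraries. In the 5 deeper libraries the α genes other than PCDHA1 show a summit near the TSS and another downstream. The last summit lay at about 544 to 565 bp (the range of library medians). In SNDX-5613 3, PCDHA3, PCDHA5, PCDHA7, PCDHA8 and PCDHA9 show no summit near the TSS. Most β genes show a single summit near the TSS.

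In most open members with a match, the nearest summit lay close to the CGCT core. In open members with a match, the nearest summit was a median of 14.5 bp from the core in the α array, 15.3 bp in the β array and 8.75 bp in the γ array, where the core itself was at a median of -48, -61.5 and -63 bp from the TSS. The largest gaps were 72 bp at PCDHA1, 109 bp at PCDHB15 and 40 bp at PCDHGA2, and the γ median covers 4 members. No other position was compared, so these gaps do not show that summits follow the core. A CTCF consensus (12 letters, CCA, then AG, then GGC, with 2 free letters in each gap, on either strand) was searched for around the second α summit. Among the α genes, exact matches in the coding part of the first exon occurred on the gene's own strand in PCDHA4, PCDHA7, PCDHA9, PCDHA10 and PCDHA13. They were centred 576 to 611 bp from the TSS. In the 4 open genes the nearest summit was a median of 12, 94.5, 45.5 and 32 bp away, in that order. The open genes PCDHA2, PCDHA3, PCDHA5, PCDHA6, PCDHA8, PCDHA11 and PCDHA12 also had a downstream summit but no exact match, and the closed PCDHA13 carried one. Matches were not particular to the α array. The closed genes PCDHGA1, PCDHGA5 and PCDHGA6 had coding matches on their own strand, at 344, 342 and 366 bp. The closed PCDHGA4 had a coding match on the opposite strand, at 235 bp, and PCDHB9 had a match at -76 bp. The plus strand of hg38 is printed, with the consensus in capitals, for the α genes with a match.
PCDHA4 exon (chr5:140807636-140807663): ctcggtttCCACTAGAGGGCgcctcgga
PCDHA7 exon (chr5:140834832-140834859): ctcggtttCCACTAGAGGGCgcgtccga
PCDHA9 exon (chr5:140848944-140848971): ctcggtttCCACTAGAGGGCgcgtccga
PCDHA10 exon (chr5:140856494-140856521): ctcgatttCCACTAGAAGGCgcatctga
PCDHA13 exon (chr5:140882717-140882744): ctcgatttCCACTAGATGGCgcatccga

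Outside the promoters, 4 sites held the same consensus, and in each it read on the opposite strand. A CTCF match within 100 bp of the summit was present in 6 of the 23 sites in all 6 libraries (26.1%), against 11.6% of the 33405 such sites in the genome. These shares are descriptions, and a match is not a measure of CTCF binding. The minus strand of hg38 is shown for 3 of the 4 sites, with the consensus in capitals.
Site between the α and β arrays, first (chr5:141040355-141040382): atctttaaCCAGCAGAGGGCgagtcgac
Site between the α and β arrays, second (chr5:141041364-141041391): ctcatctgCCACCAGGTGGCaggtggat
Site past the γ array (chr5:141524886-141524913): atgctcagCCAGCAGGTGGCgctgggag

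Of the 6 sites in all 6 libraries that were not member promoters, the highest by lowest rank was the promoter of TAF7, a gene for a subunit of the general transcription factor TFIID that lies between the β and γ arrays (chr5:141320185-141321297). Rank is the percentile of a site's −log10 p among the 33405 sites in all 6 libraries, with 100 the strongest. The TAF7 promoter ranked 85.5, 88.8 and 84.6 with DMSO and 88.8, 82.7 and 86.5 with SNDX-5613. The site past the γ array, in an intron of DIAPH1 and 11.999 kb beyond the last γ exon (chr5:141524657-141525215), ranked 80.7, 80.5 and 85.5 with DMSO and 84.2, 73.5 and 78.3 with SNDX-5613. Both overlapped between groups. An intronic site of the antisense gene PCDHB1-AS1 (chr5:141084486-141085085) ranked 83.9, 77.4 and 79.8 and then 80.6, 75.5 and 71.1, again with overlap. Between the α and β arrays and 29.0 kb past the last α exon, chr5:141040847-141041427 ranked 57.3, 62.7 and 70.0 with DMSO and 77.8, 70.0 and 77.2 with SNDX-5613, where the groups met at their edges. A second DIAPH1 intronic site (chr5:141557704-141558246) ranked 57.5, 51.3 and 44.3 and then 48.2, 36.6 and 50.2. The sixth, in the last exon shared by the γ genes (chr5:141512262-141512763), ranked from 12.2 to 37.2.

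The number of open members did not differ between groups by more than the spread between libraries. There were 28, 26 and 26 open members with DMSO (26.7 ± 1.15, SD, n = 3) and 32, 30 and 17 with SNDX-5613 (26.3 ± 8.14, SD, n = 3), and an exact two-sided permutation test gave p = 1. With 3 libraries per group this test cannot give a p below 0.1. The 2 deeper SNDX-5613 libraries were above all DMSO libraries and the shallow one was below. Without SNDX-5613 3 the difference was 4.33 members (exact permutation p = 0.1, the smallest possible). At the equal number of regions the counts were 23, 21 and 21 with DMSO and 22, 24 and 17 with SNDX-5613, and the groups overlapped (21.7 ± 1.15 against 21 ± 3.61, SD, n = 3, exact permutation p = 0.9). At that number 58.8% to 59.8% of all protein-coding promoters were open in each of the 6 libraries, with 59.7% in SNDX-5613 3, which was the lowest library for members but not for all promoters. The regions over the whole interval numbered 43, 41 and 39 with DMSO and 48, 43 and 26 with SNDX-5613 (exact permutation p = 1). At the equal number they were 30, 29 and 28 against 28, 33 and 26 (exact permutation p = 1). All protein-coding genes had 65.9% to 68.3% of promoters open with DMSO, and 69.6%, 69.2% and 59.7% with SNDX-5613. The 2 deeper SNDX-5613 libraries were thus the highest and SNDX-5613 3 the lowest outside the arrays too, while the DMSO libraries were in another order.

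**Figure D4:**
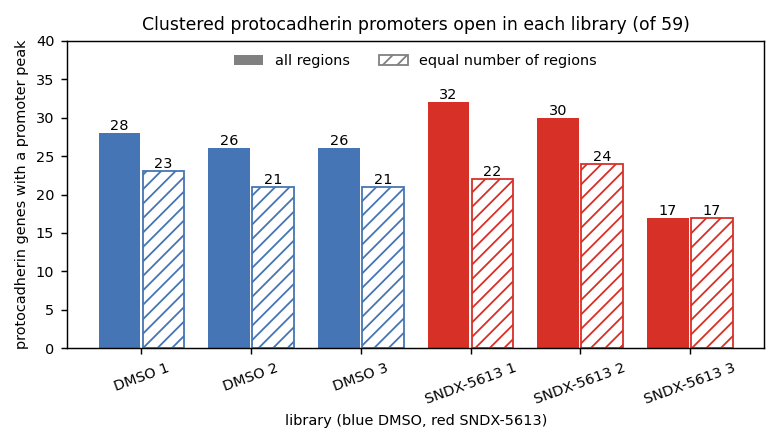
Number of the 59 genes with an open promoter in each library, from all regions (filled bars) and from the 40568 strongest regions (hatched bars), with DMSO in blue and SNDX-5613 in red. The filled bars of SNDX-5613 1 and 2, at 32 and 30, exceed the DMSO bars at 26 to 28, and the hatched bars overlap.

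No site of the interval was present in 3 of 3 libraries of one group and 0 of 3 of the other, and 0.147% and 1.18% of the 166021 merged sites of the genome were gained and lost by that rule. For promoters alone, 0 members were gained or lost, against 0.125% and 0.1% of protein-coding promoters. Presence in at least 2 more SNDX-5613 than DMSO libraries was found for 3 members, PCDHA1, PCDHB1 and PCDHB11, against 1.27% of protein-coding promoters, and the reverse for 0 members, against 0.875%. All 3 were weak. PCDHA1 stood at 4.87 and 5.98-fold in SNDX-5613 1 and 2, with no peak in the other 4 libraries. PCDHB1, an outlying β gene, had 3.54 and 3.98-fold in the same libraries, and PCDHB11 had 5.75 and 6.77-fold. The lowest fold called at the usual background was 3.04 to 3.51 in the DMSO libraries, so PCDHB1 was at the edge of detection. At the equal number of regions these 3 promoters were open in no library. The deposited DMSO consensus set nevertheless contained a region at PCDHB11 (chr5:141199480-141199809), although none of the 3 DMSO peak lists had one there. One more site had the same pattern, in the α constant region (chr5:141004151-141004506), with 4.43 and 4.38-fold in SNDX-5613 1 and 2. Presence in SNDX-5613 1 and 2 and in no DMSO library was thus found for 4 of the 50 sites, against 2.39% of all merged sites, and the reverse for 0, against 1.21%. Over promoters it was found for 3 members, against 1% of protein-coding promoters, and the reverse for 0, against 0.115%.

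At the equal number of regions PCDHB10 was the member whose number of libraries differed by 2, being open in SNDX-5613 1 and 2 and in no DMSO library, against 1.22% of protein-coding promoters, and 0 members differed the other way, against 0.51%. With all regions it was open in the 5 deeper libraries, at 7.51, 6.94 and 9.40-fold with DMSO and 11.9 and 10.8-fold with SNDX-5613. The groups did not overlap among these 5. The remaining members open in some libraries only were PCDHB9, in DMSO 1 and SNDX-5613 2, PCDHB15, PCDHGB3 and PCDHGC5 in SNDX-5613 1, and PCDHGB7 in DMSO 1. The PCDHGC5 summit was near the limit of the window, -945 bp from the TSS. The shallow library lacked 9 of the 26 promoters open in the other 5 (PCDHA6, PCDHA11, PCDHA12, PCDHAC2, PCDHB7, PCDHB8, PCDHB10, PCDHB16 and PCDHGB1), against 7.86% of such protein-coding promoters.

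Protocadherin promoters ranked low among open promoters. The median rank of the 17 promoters in all 6 libraries was 43.8, 49.3 and 40.1 with DMSO and 51.9, 48.7 and 39.4 with SNDX-5613, whereas that of 11730 protein-coding promoter sites was 80.5 to 81.8. Members overlapped between groups (44.4 ± 4.65 against 46.7 ± 6.52, SD, n = 3, exact permutation p = 0.8). Without SNDX-5613 3 the difference was 4.45 (exact permutation p = 0.1, the smallest possible). Ranked by fold in place of −log10 p, the difference was -12.1 (exact permutation p = 0.4), so its direction depended on the measure.

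**Figure D5:**
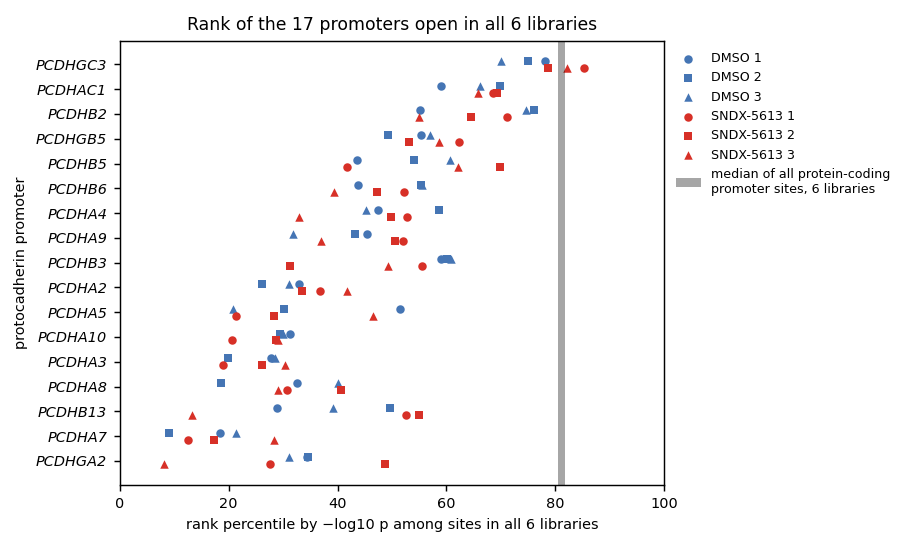
Rank percentile by −log10 p among the sites in all 6 libraries (x axis) for the 17 promoters open in all of them, with DMSO libraries in blue and SNDX-5613 libraries in red. The grey band is the range over libraries of the median of all protein-coding promoter sites. The promoters lie left of the band except PCDHGC3, which passes it in SNDX-5613 1 and 3, at 85.2 and 82.2.

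Ranks did not overlap between groups at 4 of the 23 sites in all 6 libraries, all of them member promoters, with 2 higher and 2 lower under SNDX-5613, against 8.54% higher and 8.08% lower of the 33405 sites, and 6.73% and 7.73% of protein-coding promoter sites. Over the 23 sites the share was close to that of the genome. Among member promoters it was 2 of 17 each way, somewhat above the share of protein-coding promoter sites but resting on these few calls. The 4 promoters are therefore given as values only. PCDHA2 ranked 32.9, 26.1 and 31.2 with DMSO and 36.7, 33.5 and 41.7 with SNDX-5613. PCDHGC3 went from 78.1, 75.0 and 70.1 to 85.2, 78.7 and 82.2. Both were higher in every SNDX-5613 library than in any DMSO library. PCDHB3 ranked 58.9, 60.03 and 60.8 with DMSO, and 55.5, 31.3 and 49.3 with SNDX-5613. PCDHA10 ranked 31.4, 29.4 and 29.97 and then 20.5, 28.8 and 29.0, a gap smaller than the spread within the treated group. Ranked among sites in the 5 deeper libraries, PCDHA10 overlapped, at 54.5, 53.3 and 54.3 with DMSO and 44.5 and 54.2 with SNDX-5613. Each of the 4 gave an exact permutation p = 0.1, the smallest that 3 against 3 allows. Ranked by fold, 0 sites of the interval were higher and 3 lower, so the higher ranks of PCDHA2 and PCDHGC3 rested on the −log10 p.

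The 5 deeper libraries allowed 26 member promoters to be ranked, among 59985 sites in all 5. Ranks did not overlap between groups at 7 promoters that were higher with SNDX-5613 and 1 that was lower, against 12.4% and 12.6% of protein-coding promoter sites. Over all 38 sites of the interval in these libraries the counts were 8 and 1, against 14.3% and 14.4% of sites in the genome. The higher ones were PCDHA2, PCDHA9, PCDHAC2, PCDHB8, PCDHB10, PCDHB13 and PCDHGC3, and PCDHB3 was lower. The PCDHA2 ranks again came from summits at different places, before the TSS or in the exon. PCDHAC2, the C-type gene nearest the α constant exons, moved most, from ranks of 1.79, 2.92 and 3.07 to 31.9 and 16.7. Its folds were 4.01, 4.77 and 4.50 with DMSO and 9.29 and 6.73 with SNDX-5613, and its strongest summit lay at 0, -62 and 19 bp with DMSO and at 173 and 172 bp with SNDX-5613. PCDHB8 ranked 58.3, 58.2 and 64.2 with DMSO and 80.2 and 83.6 with SNDX-5613, at 13.4, 14.1 and 15.1-fold and 19.9 and 19.9-fold. PCDHB10 ranked 19.8, 11.8 and 30.1 and then 40.3 and 39.4. The groups stood clear of each other at these 3 genes, by more than the spread within either group at PCDHB8. PCDHB13 went from 51.9, 70.5 and 62.7 to 72.6 and 74.3, and PCDHA9 from 67.0, 65.8 and 56.1 to 72.2 and 71.4, both by less than the DMSO range. The PCDHA9 ranks came from its summit in the exon, at 521 to 542 bp in these libraries. Its summit before the TSS went the other way. It stood at 17.2, 12.9 and 12.5-fold with DMSO and at 8.95 and 11.3-fold with SNDX-5613 1 and 2. PCDHAC2, PCDHB8 and PCDHB10 had no peak in SNDX-5613 3, so their shift rests on 2 treated libraries, and PCDHB8, PCDHB10 and PCDHB13 are among the members with the fewest unique words.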

How the data were processed

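ATAC-seq peak lists of 6 HLF libraries, 3 per group, and 2 group consensus sets were analysed. The authors trimmed reads with Trim Galore (0.6.7), aligned them to hg38 with Bowtie2 (2.3.4.1), marked duplicates with Picard (2.20.0) and combined replicates with RMSPC, per the study's methods and the submitters' processing notes, which also name SAMtools, deepTools (3.5.4) and MACS2. A Tn5 shift, duplicate removal and a blacklist are not given in the sources used here. Peaks were called per library. The deposited lists give the authors' fold (a ratio of summit pileup to local background), −log10 p and −log10 q (q up to 0.05). Read counts were not used here, so depth was read from the background pileup that each fold and p imply. Of the consensus sets, only the regions were used, not their deposited −log10 p.

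Summits sharing a region were merged. A promoter was open with a summit within 1 kb of the TSS of the gene's canonical transcript (GENCODE 44). PCDHB1-AS1, an antisense gene, was left out, and of 2 records named PCDHB18P the pseudogene was kept. Overlapping regions of the libraries were joined into sites. Python (3.11.15), pandas (2.3.3), NumPy (2.4.6) and SciPy (1.17.1) were used, and the scripts were tested on simulated data. Members and lists were chosen with earlier results of these data known. Values are given for up to 12 members open in all 6 libraries with the highest lowest rank, members whose number of libraries differed by at least 2, sites whose ranks did not overlap and up to 5 non-promoter sites. PCDHAC2, PCDHB8, PCDHB13 and the sixth non-promoter site were added after their values were seen. Exact permutation tests over libraries, two-sided, compared the groups, and alternatives changed the window, TSS, threshold, ranking measure and libraries.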

Additional observations from a re-analysis of the deposited data

How the results depend on the processing

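No comparison passed a threshold of 0.05, which 3 libraries per group cannot reach. Of 32 alternatives other than left-out libraries, 28 did not reverse a difference or move a count by more than 1.5 times. The difference in median promoter rank (2.24) reversed to -0.690 with a window of 500 bp, -0.0893 with the gene start as TSS and -12.1 when ranked by fold, which also left 0 sites with a higher rank. Leaving out 1 library at a time gave differences of -3.17 to 4.33 open members, -2.17 to 1.33 at the equal number of regions, -6.5 to 4.5 regions, -2 to 1.5 regions at the equal number and -0.401 to 4.69 in rank, and 0 to 4 gained, 0 to 1 lost, 2 to 8 higher and 1 to 4 lower sites. Open members reversed to 0.333 without DMSO 1. Without SNDX-5613 3 the differences were 4.33 and 1.33 members, 4.5 regions and 4.45 in rank (exact permutation p = 0.1, 0.3, 0.3 and 0.1), with 4 gained, 8 higher and 1 lower sites, and without SNDX-5613 1 the rank difference was -0.401. The part of depth in the missing peaks of SNDX-5613 3 was not tested. That library lacked PCDHB8, at 19.9-fold in both other SNDX-5613 libraries, and held PCDHA7, at 10.1 and 10.4-fold there. These 2 promoters are not alike. PCDHA7 counted as open in SNDX-5613 3 only through a summit 491 bp past the TSS, at 5.67-fold, and PCDHB8 had 50.6% unique words.

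With the replicate number as a block, sign-flip tests of the same differences (-0.333 and -0.667 members, -2 and 0 regions, 2.24 in rank) gave exact permutation p = 1, 0.75, 1, 1 and 1, where 0.25 is the smallest possible, and no call changed. Deviations of same-numbered libraries correlated at 0.0313, 5.9e-05 and 0.0184 over 33405 sites. These values cannot show whether same-numbered libraries came from the same dish. The main tests leave the pairing out, and the sign-flip tests use it.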

Other observations

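The genes that act on the clusters were open almost throughout. All 14 listed regulators, among them CTCF, the cohesin genes RAD21, SMC1A and SMC3, the cohesin loader NIPBL and the DNA methyltransferases DNMT1, DNMT3A and DNMT3B, had an open promoter in all 6 libraries. So did 7 of 8 listed intracellular partners of protocadherins, with PTK2B closed in each. Of 12 protocadherin genes outside the clusters, 8 were open in all 6 libraries, PCDH8 and PCDH12 were closed, PCDH17 was open in 4 and PCDH11X was open in SNDX-5613 1 and 2 only. Among the 3 other protein-coding genes with a TSS inside the interval, TAF7 was open in all 6 libraries, and SLC25A2 and ENSG00000279983 were closed. Of 4 epithelial markers, KRT8 and KRT18 were open in all 6 libraries, EPCAM in 3 and CDH1 in none.

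The deposited consensus sets held 42 regions of the interval with DMSO and 44 with SNDX-5613, and a region within 1 kb of the TSS of 28 and 30 members. PCDHGB7 had one in the DMSO set alone, and PCDHA1, PCDHB1 and PCDHGB3 in the SNDX-5613 set alone. Of the consensus regions in the genome, 1.22% of the DMSO set and 3.32% of the SNDX-5613 set overlapped no region of any of that group's 3 deposited peak lists.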
